A study of Mus musculus with 10 samples.

Results

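The cytokines of the IL-6 family and their receptors were examined in mouse femur after 24 h without hindlimb loading. The family was taken as 10 listed genes: the ligands Il6, Il11, Lif, Osm and Ctf1, the receptor chains Il6ra, Il6st, Lifr and Osmr, and the feedback inhibitor Socs3. A probe belonged to a gene when its name in the file was that gene or when its accession was listed under that gene. By this rule 9 of the 10 genes had a probe, of 19504 genes with a symbol on the array, and the 9 genes had 15 probes in all. Lif had none. A further 3 probes were linked to Lif, Lifr and Socs3 only by a description or an older clone name, and their values are kept apart below. All 18 probes were well above background on all 10 arrays, and all were tested.

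Total RNA came from the femur of 10 male ICR mice aged 6 months, caged singly, with 1 one-colour Agilent array per animal. The 5 control mice moved freely. The 5 unloaded mice were suspended by the tail, head down, for 24 h and were anaesthetised while still suspended. The labels name no transgene or drug in either group. The animals are numbered separately within each group, so the p-values measure the spread between different animals. The labels call the tissue bone, and the markers described near the end show that RNA of marrow cells and of skeletal muscle was in it as well.

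Each of these ligands binds a receptor complex that contains gp130, the signalling chain encoded by Il6st. IL-6 and IL-11 need a ligand-specific receptor chain in addition, whereas LIF, cardiotrophin 1 and oncostatin M bring gp130 together with the LIF receptor or the oncostatin M receptor. The complex activates Janus kinases, which phosphorylate STAT3, and STAT3 induces Socs3, which in turn blocks the receptor. In bone, osteoblasts, osteocytes and marrow cells make and answer these cytokines, which act on both bone formation and osteoclast formation.

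Sequence upstream of the members' start sites was taken from RefSeq (GRCm38.p6), with 11 windows that covered all members but Osm. The 250 bases before each start were searched on both strands for 5 motifs. The first was the STAT motif TTCNNNGAA, which 7.02% of 32851 such windows hold. Among the members' windows it was found in 1, that of Socs3. The stretch with it is shown because Socs3 is the family's feedback inhibitor and its level is reported below, and the capitals mark the motif. It lies on the minus strand at chr11:117969502-117969530, from base -164 to base -136 counted from the start.
Socs3: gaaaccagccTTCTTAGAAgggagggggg

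A fixed 10-base form of a C/EBP motif was held by 0.0548% of all windows, and that of an NF-kB motif by 0.0639%. Each was searched as the exact letters in capitals below. Other forms were not searched, so the shares do not show how common these motifs are, nor whether other members hold them. Among the members, each exact form was found in the Il6 window alone. The spelling searched is that of the Il6 stretch itself, so the match does not set Il6 apart from the other members. The stretch that holds both is shown because Il6 is the member with the smallest p below, and because Cebpb, the gene of a C/EBP factor, is among the pathway genes. It lies on the plus strand at chr5:30012959-30013098, from base -155 to base -16, and the capitals mark the C/EBP motif and then the NF-kB motif. A link between Cebpb and Il6 was not tested.
Il6: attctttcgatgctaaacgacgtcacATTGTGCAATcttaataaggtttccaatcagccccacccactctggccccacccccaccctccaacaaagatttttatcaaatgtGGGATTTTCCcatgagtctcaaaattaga

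The AP-1 motif TGAGTCA, held by 4.46% of all windows, was found upstream of Il6, Il11 and Lif. The CRE motif TGACGTCA, held by 1.55%, was found in 0 of the 11 windows. Both were searched as these exact letters only, so forms that differ by a letter were missed. The Il6 stretch above holds cgacgtca, which differs from this CRE form in the first letter alone. None of the 5 motifs overlapped another in the stretches shown. A match is a description of these letters only.

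Values below are log2 of the processed signal relative to the array's 75th percentile, and differences are unloaded minus control. No member passed the test: limma called 0 of the 15 probes at a Benjamini-Hochberg adjusted p below 0.05, against 0.00259% of the 38629 probes tested, which is 1 probe of a gene outside the family. At an unadjusted p below 0.05 there were 3 member probes, 1 each of Il6, Osm and Lifr, against 16.1% of all probes tested. All 3 were higher after unloading, and 0 member probes were lower at that threshold. Of all probes tested, 10.2% passed that threshold and were higher, and 5.92% passed it and were lower. In these same 3 probes every unloaded array lay above every control array, which held for 1.51% of all probes. Over the 15 probes 8 differences were positive and 7 negative, with a median of 0.04, and with the arrays scaled on their median 2 of the 8, of Il6ra and Socs3, were negative. Over all probes 62.6% were positive and the median was 0.07, against 43.9% and -0.03 with median scaling.

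**Figure D1:**
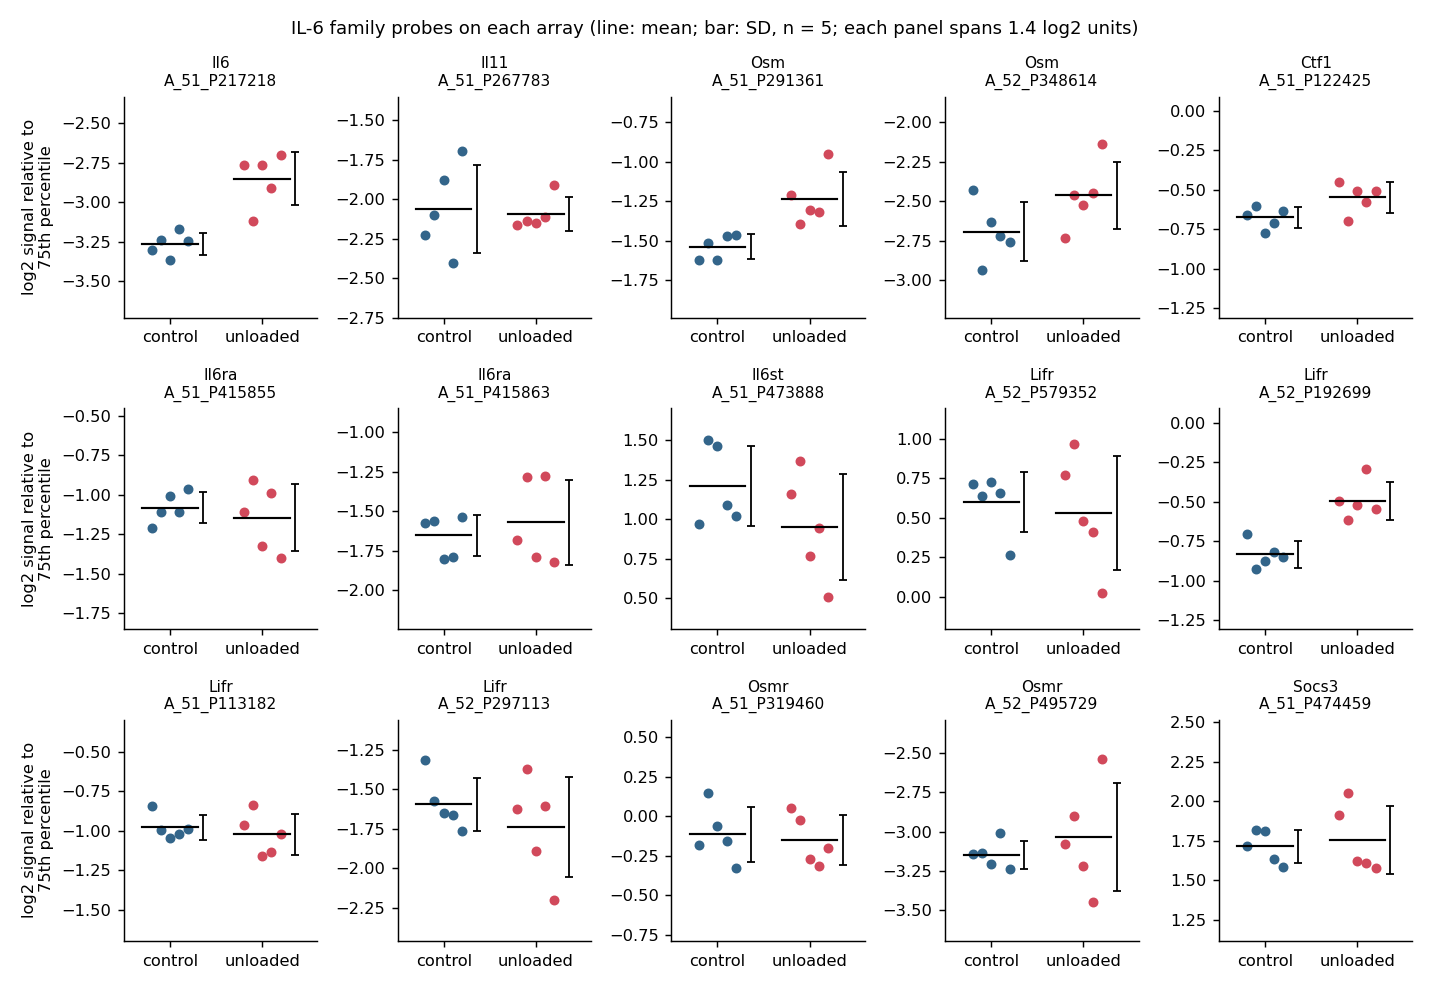
Log2 signal relative to the array's 75th percentile (vertical axis) for the member probes, with 1 point per array and the control and unloaded groups side by side. For Il6 (A_51_P217218), Osm (A_51_P291361) and Lifr (A_52_P192699) the 5 unloaded arrays lie above the 5 control arrays, and in the other named probes the groups overlap.

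Il6, the founding ligand of the family, was measured by a probe spotted 10 times on each array. The controls 1 to 5 read -3.30, -3.24, -3.36, -3.17 and -3.24, and the unloaded animals 1 to 5 read -2.76, -3.12, -2.76, -2.91 and -2.70. All unloaded values lay above all control values, but unloaded animal 2, at -3.12, stood close to control 4, at -3.17. The means were -3.26 ± 0.07 (SD, n = 5) in control and -2.85 ± 0.17 (SD, n = 5) in unloaded bone. The difference was 0.41 (SE 0.10, 95% interval 0.20 to 0.63), or 1.33-fold, with an unadjusted p of 0.00102 and a limma adjusted p of 0.218. It ranked 177th by p among all probes. In bulk tissue, a difference in the number of cells that carry a transcript and a difference in the RNA per cell cannot be told apart.

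The Il6 signal was dim. Before scaling, the geometric mean of its spots was 87.9, 95.8, 83.6, 75.6 and 84.4 intensity units in controls 1 to 5, and 115, 82.8, 93.7, 103 and 107 in unloaded animals 1 to 5. These unscaled values overlapped between the groups. Negative control spots had medians from 7.36 to 10.9 units on the control arrays and from 7.12 to 12.6 on the unloaded arrays, well below the Il6 spots. Of the 100 Il6 spots, 99 were well above background. The spots of an array differed with an SD of 0.29 on the log2 scale (median over arrays, range 0.22 to 0.37).

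**Figure D2:**
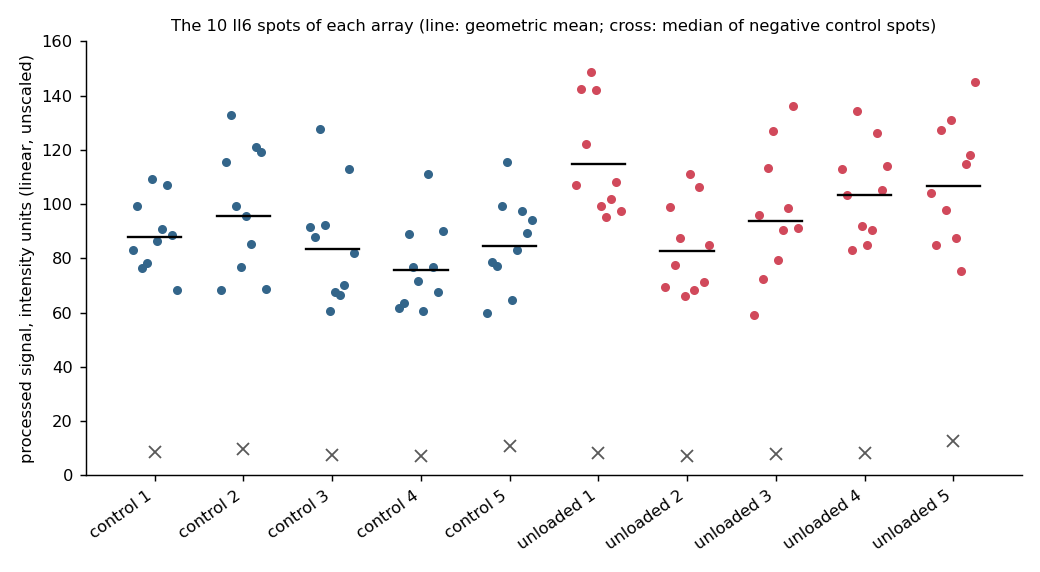
Unscaled processed signal in intensity units (linear axis from 0) of the 10 Il6 spots on each array, with the geometric mean as a line and the median of the negative control spots as a cross. The means run from 75.6 to 95.8 on the control arrays and from 82.8 to 115 on the unloaded arrays, and the negative controls stay at or below 12.6.

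The size of the Il6 difference depended on scaling and background correction. The 75th percentile itself was lower by 0.19 on the log2 scale in the unloaded arrays (difference -0.19), so that the unscaled Il6 difference was 0.23. With normexp background correction it was 0.19 (unadjusted p = 0.217, limma adjusted p = 0.667, where 23 alternative fits gave adjusted p from 0.111 to 1.00). On slide 2, which held control 5 and unloaded animals 1 to 3, it was 0.36, with an unadjusted p of 0.132. Dim probes as a class also lay higher after unloading: in the tenth of probes by mean signal that holds Il6, the second from the bottom, the median difference was 0.12, and 1.99% of probes had all unloaded arrays above all controls.

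Osm encodes oncostatin M, a ligand made by myeloid and T cells that acts on osteoblasts through the oncostatin M and LIF receptors. Its probe A_51_P291361 read -1.62, -1.51, -1.62, -1.47 and -1.46 in controls 1 to 5, and -1.21, -1.40, -1.31, -1.32 and -0.95 in unloaded animals 1 to 5. On this scale the groups did not overlap, and unloaded animal 5 was the highest. Before scaling they overlapped. Control 2, at 316 intensity units, lay above unloaded animals 2, 3 and 4, at 274, 257 and 311. Means were -1.54 ± 0.08 (SD, n = 5) and -1.24 ± 0.17 (SD, n = 5), a difference of 0.30 (SE 0.10, 95% interval 0.08 to 0.52), or 1.23-fold, with a limma adjusted p of 0.252. The difference was 0.11 without scaling and 0.16 on slide 2, where the unadjusted p was 0.443.

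The other Osm probe, A_52_P348614, read -2.43, -2.94, -2.63, -2.72 and -2.76 in controls and -2.73, -2.46, -2.53, -2.45 and -2.14 in unloaded animals. It had the same sign, but control 1 lay above all unloaded animals except number 5, so the groups overlapped. The difference was 0.23 (SE 0.12, 95% interval -0.03 to 0.50, limma adjusted p = 0.349). Markers of cells that make Osm did not all differ the same way. The mean of the 6 T cell markers ranged from -0.40 to -0.19 in control and from -0.24 to -0.04 in unloaded bone, with 5 of 6 differences positive (4 under median scaling). That of the 8 monocyte and macrophage markers ranged from 1.65 to 1.87 and from 1.35 to 1.82, with 6 of 8 negative (7 under median scaling). That of the 8 neutrophil markers ranged from 5.39 to 5.66 and from 5.32 to 5.57, with 4 of 8 negative (8 under median scaling). No marker of these lists was called, and their part in the Osm values was not tested.

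Il11, a ligand made by osteoblast lineage and stromal cells, showed no difference beyond its spread. Controls read -2.23, -2.10, -1.88, -2.41 and -1.70, and unloaded animals -2.16, -2.14, -2.15, -2.11 and -1.91. The control values were the more scattered (SD 0.28 against 0.11) and enclosed all the unloaded values. The difference was -0.03 (SE 0.13, 95% interval -0.31 to 0.24, limma adjusted p = 0.903). On slide 2 it was -0.46, since control 5, the single control there, was the highest of all arrays.

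Ctf1 encodes cardiotrophin 1, which signals through gp130 and the LIF receptor. It read -0.66, -0.60, -0.77, -0.71 and -0.63 in controls and -0.45, -0.70, -0.50, -0.58 and -0.51 in unloaded animals. All unloaded animals but number 2 lay above every control. The difference was 0.13 (SE 0.09, 95% interval -0.06 to 0.31, limma adjusted p = 0.442). It was 0.0315 under median scaling and -0.06 without scaling.

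Lif itself had no probe under its name or accession. A testis cDNA clone that the file describes as leukemia inhibitory factor (A_51_P306109) differed by 0.06 (SE 0.14, 95% interval -0.23 to 0.35, limma adjusted p = 0.825). Its control values ran from -2.85 to -2.20 and its unloaded values from -2.69 to -2.21, so the groups covered nearly the same range. Of the 5 ligand probes with a member's name, 4 were positive, and their median difference was 0.23, or 0.14 under median scaling.

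Among the receptors, Il6st encodes gp130, the chain all members share. It read 0.97, 1.499, 1.46, 1.09 and 1.02 in controls 1 to 5 and 1.16, 1.37, 0.76, 0.95 and 0.51 in unloaded animals 1 to 5. Unloaded animals 3, 4 and 5 lay below all controls, whereas animals 1 and 2 lay within their range. Means were 1.21 ± 0.25 (SD, n = 5) and 0.95 ± 0.34 (SD, n = 5), a difference of -0.26 (SE 0.16, 95% interval -0.61 to 0.09), or 0.836-fold, with a limma adjusted p of 0.413. Without unloaded animal 5 it was -0.15, and on slide 2 it was 0.08, with the opposite sign.

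Il6ra, the receptor chain that binds IL-6 and lets it engage gp130, had 2 probes of opposite sign, which under median scaling and quantile normalization were both negative. Probe A_51_P415855 ran from -1.21 to -0.96 in controls and from -1.40 to -0.91 in unloaded animals, and differed by -0.06 (SE 0.11, 95% interval -0.30 to 0.17, limma adjusted p = 0.764). Probe A_51_P415863 ran from -1.80 to -1.54 and from -1.82 to -1.27, and differed by 0.08 (SE 0.13, 95% interval -0.19 to 0.36, limma adjusted p = 0.737). In both probes the unloaded animals enclosed the controls, and in both unloaded animals 2 and 4 were high and 3 and 5 low.

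Lifr, the chain that pairs with gp130 for LIF, cardiotrophin 1 and oncostatin M, had 4 probes, and they disagreed. Probe A_52_P192699 read -0.70, -0.92, -0.88, -0.82 and -0.85 in controls and -0.50, -0.62, -0.52, -0.29 and -0.55 in unloaded animals. On this scale the groups did not overlap, the highest control being control 1 and the highest unloaded animal number 4. Before scaling they overlapped. Control 1, at 532 intensity units, lay above unloaded animals 2, 3 and 5, at 469, 443 and 474. The means were -0.83 ± 0.08 (SD, n = 5) and -0.50 ± 0.12 (SD, n = 5), a difference of 0.34 (SE 0.09, 95% interval 0.14 to 0.54), or 1.26-fold. Its unadjusted p was 0.00256 and its limma adjusted p 0.218. It was 0.15 without scaling and 0.30 on slide 2, where the unadjusted p was 0.147.

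The other 3 Lifr probes had negative differences. Probe A_52_P579352 read 0.71, 0.64, 0.73, 0.65 and 0.26 in controls and 0.77, 0.96, 0.48, 0.41 and 0.02 in unloaded animals, with a difference of -0.07 (SE 0.16, 95% interval -0.41 to 0.27, limma adjusted p = 0.827). In that probe the animal numbered 5 was the lowest of its group in both groups, and on slide 2, where control 5 is the only control, the difference was 0.47. Probe A_51_P113182 differed by -0.04 (SE 0.09, limma adjusted p = 0.809) and probe A_52_P297113 by -0.15 (SE 0.15, limma adjusted p = 0.592), with overlapping groups in each. A clone probe linked to Lifr by an older name (A_52_P438170) differed by -0.13 (SE 0.16, limma adjusted p = 0.674). The files used here do not place these probes on the transcripts, so whether they read different Lifr forms was not tested.

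Osmr, the oncostatin M receptor chain, which also forms the IL-31 receptor with the product of Il31ra, had 2 probes with differences of opposite sign. Probe A_51_P319460 read -0.18, 0.15, -0.06, -0.15 and -0.32 in controls and 0.05, -0.02, -0.27, -0.31 and -0.20 in unloaded animals, and differed by -0.03 (SE 0.11, 95% interval -0.27 to 0.21, limma adjusted p = 0.880). The unloaded values lay within the range of the controls. Probe A_52_P495729 differed by 0.11 (SE 0.14, 95% interval -0.20 to 0.42, limma adjusted p = 0.685), and its unloaded values, from -3.45 to -2.54, enclosed its controls, from -3.24 to -3.01. Of the 9 receptor probes, 3 were positive (1 of them, of Il6ra, negative under median scaling) and 6 negative, with a median of -0.04.

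Socs3, the inhibitor that STAT3 induces and that blocks gp130, read 1.72, 1.82, 1.81, 1.64 and 1.59 in controls 1 to 5 and 1.92, 2.05, 1.62, 1.61 and 1.58 in unloaded animals 1 to 5. Unloaded animals 1 and 2 lay above all controls, and the other three near the lowest controls. Means were 1.72 ± 0.10 (SD, n = 5) and 1.76 ± 0.21 (SD, n = 5), a difference of 0.04 (SE 0.11, 95% interval -0.20 to 0.28, limma adjusted p = 0.855) that was -0.05 under median scaling. As a fold the interval runs from 0.871 to 1.22.

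A second probe that the file describes as suppressor of cytokine signaling 3 (A_52_P431770) read 2.55, 2.61, 2.55, 2.48 and 2.56 in controls and 2.88, 2.95, 2.62, 2.83 and 2.32 in unloaded animals. Unloaded animals 1 to 4 lay above all controls and animal 5 below them. The difference was 0.17 (SE 0.12, 95% interval -0.08 to 0.42, limma adjusted p = 0.448). Without unloaded animal 5 it was 0.27 (unadjusted p = 0.0122, limma adjusted p = 0.376), and under median scaling 0.07.

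**Figure D3:**
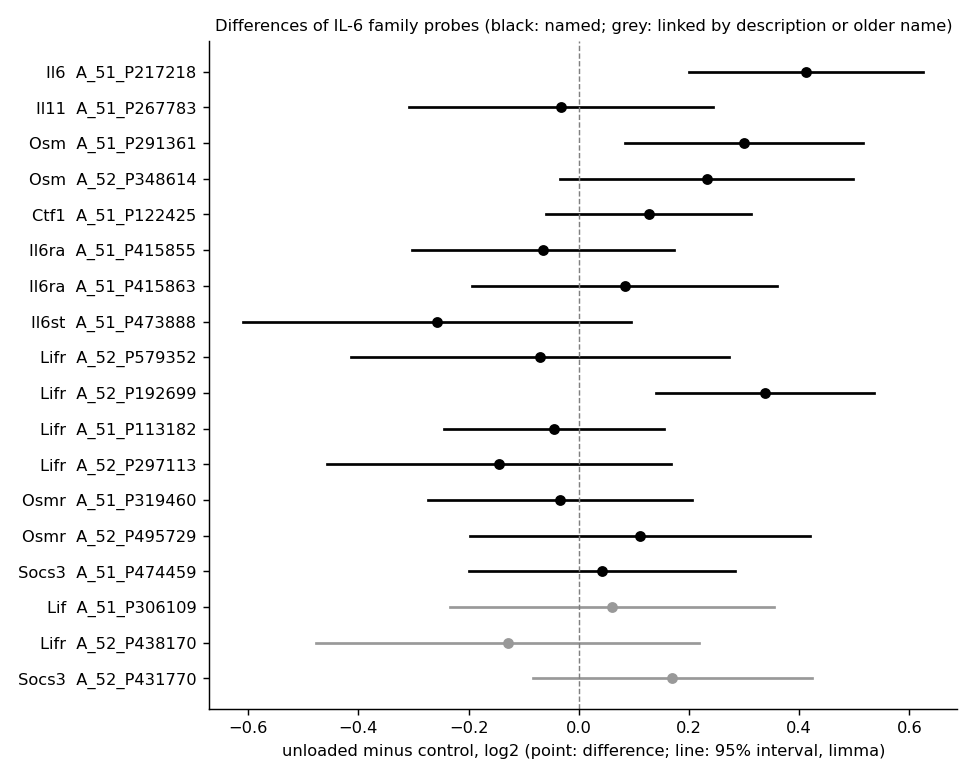
Difference between unloaded and control bone on the log2 scale (horizontal axis) for each probe, as a point with its 95% interval, with the named probes in black and the linked probes in grey. The intervals of Il6, of Osm A_51_P291361 and of Lifr A_52_P192699 lie above 0, and all others include 0.

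The rest of the pathway was described through 52 genes in 4 lists, each gene by its brightest probe. limma called 0 of the 52, and at an unadjusted p below 0.05 there were 4 higher and 6 lower, against 10.2% higher and 5.92% lower among all probes tested. The median difference was 0.00195, with 27 positive and 25 negative, whereas median scaling gave 16 positive and 36 negative with a median of -0.0932.

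Of 11 further ligands and receptors of the wider family, 8 were positive and 3 negative (6 and 5 under median scaling), with a median of 0.14 and 0 called. Il31ra, the IL-31 receptor, read -2.09, -1.92, -2.33, -2.18 and -2.05 in controls and -1.80, -1.81, -1.93, -1.78 and -1.83 in unloaded animals, a difference of 0.28 (SE 0.09, limma adjusted p = 0.252). Control 2 lay just above unloaded animal 3, and the groups otherwise did not cross. Its ligand Il31 differed by 0.43 (SE 0.18, limma adjusted p = 0.281), with control 3, at -3.74, well below all other arrays. Without control 3 the Il31 difference was 0.26, and with normexp background correction it was 0.23 for Il31 and 0.17 for Il31ra. Ctf2, a relative of cardiotrophin 1, differed by 0.15 (SE 0.10, limma adjusted p = 0.414) and the cytokine gene Clcf1 by 0.15 (SE 0.11, limma adjusted p = 0.468), the latter by 0.08 without control 3. With normexp background correction the differences were 0.01 for Ctf2 and 0.12 for Clcf1, and under median scaling 0.06 and 0.05.

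Of 10 kinases, STATs and adaptors that carry the signal, 5 were positive and 5 negative, with a median of -0.05 and 0 called, and under median scaling all 10 were negative. Stat3, the main transcription factor of the pathway, read 3.47, 3.09, 3.35, 3.13 and 3.09 in controls and 3.06, 3.14, 2.94, 2.82 and 2.62 in unloaded animals, a difference of -0.31 (SE 0.12, limma adjusted p = 0.270). Unloaded animal 2 lay within the control range and the other four below it. The second Stat3 probe had the opposite sign, and on slide 2 the difference was -0.04. Jak1, a kinase bound to gp130, read 3.29, 3.49, 3.38, 3.35 and 3.25 in controls and 3.24, 3.32, 2.91, 3.14 and 2.57 in unloaded animals, a difference of -0.32 (SE 0.13, limma adjusted p = 0.287). Unloaded animal 5 was the lowest array for both genes. Without it the Jak1 difference was -0.20, and on slide 2 it was -0.10. The kinase gene Jak2 differed by -0.20 (SE 0.12, limma adjusted p = 0.379), with 1 of its 2 probes negative, and on slide 2 by -0.00258.

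Of 9 further inhibitors, 3 were positive and 6 negative (2 and 7 under median scaling), with a median of -0.07, and 0 had an unadjusted p below 0.05. Socs7 differed by 0.22 (SE 0.12, limma adjusted p = 0.345) and Socs2 by 0.16 (SE 0.13, limma adjusted p = 0.499). Both belong to the same family of inhibitors as Socs3. Of the 2 Socs2 probes, 1 was positive. On slide 2 the differences were -0.00173 for Socs7 and 0.56 for Socs2, and under median scaling 0.13 and 0.06. The phosphatase genes Ptpn2 and Ptpn6 differed by -0.11 (SE 0.08, limma adjusted p = 0.471) and -0.13 (SE 0.12, limma adjusted p = 0.546). Of the 3 Ptpn6 probes, 2 were negative.

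Of 22 genes known as STAT3 targets, 11 were positive and 11 negative (8 and 14 under median scaling), with a median of -0.03 and 0 called. Cebpb, a C/EBP transcription factor active in inflammation and in osteoblasts, read 2.90, 3.01, 2.80, 3.00 and 2.92 in controls and 3.38, 2.98, 3.52, 3.16 and 3.90 in unloaded animals. All unloaded animals but number 2 lay above the controls. The difference was 0.46 (SE 0.15, limma adjusted p = 0.245), both probes were positive, and on slide 2 it was 0.37. Hif1a, a factor of the response to low oxygen, read 0.64, 0.76, 0.74, 0.68 and 0.48 in controls and 0.42, 0.61, 0.28, 0.30 and 0.22 in unloaded animals, a difference of -0.30 (SE 0.10, limma adjusted p = 0.252). Only unloaded animal 2 reached into the control range, and on slide 2 the difference was -0.05. The survival gene Mcl1 differed by -0.26 (SE 0.11, limma adjusted p = 0.283) and Fgl2 by -0.26 (SE 0.11, limma adjusted p = 0.287), and on slide 2 by -0.12 and -0.07.

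**Figure D4:**
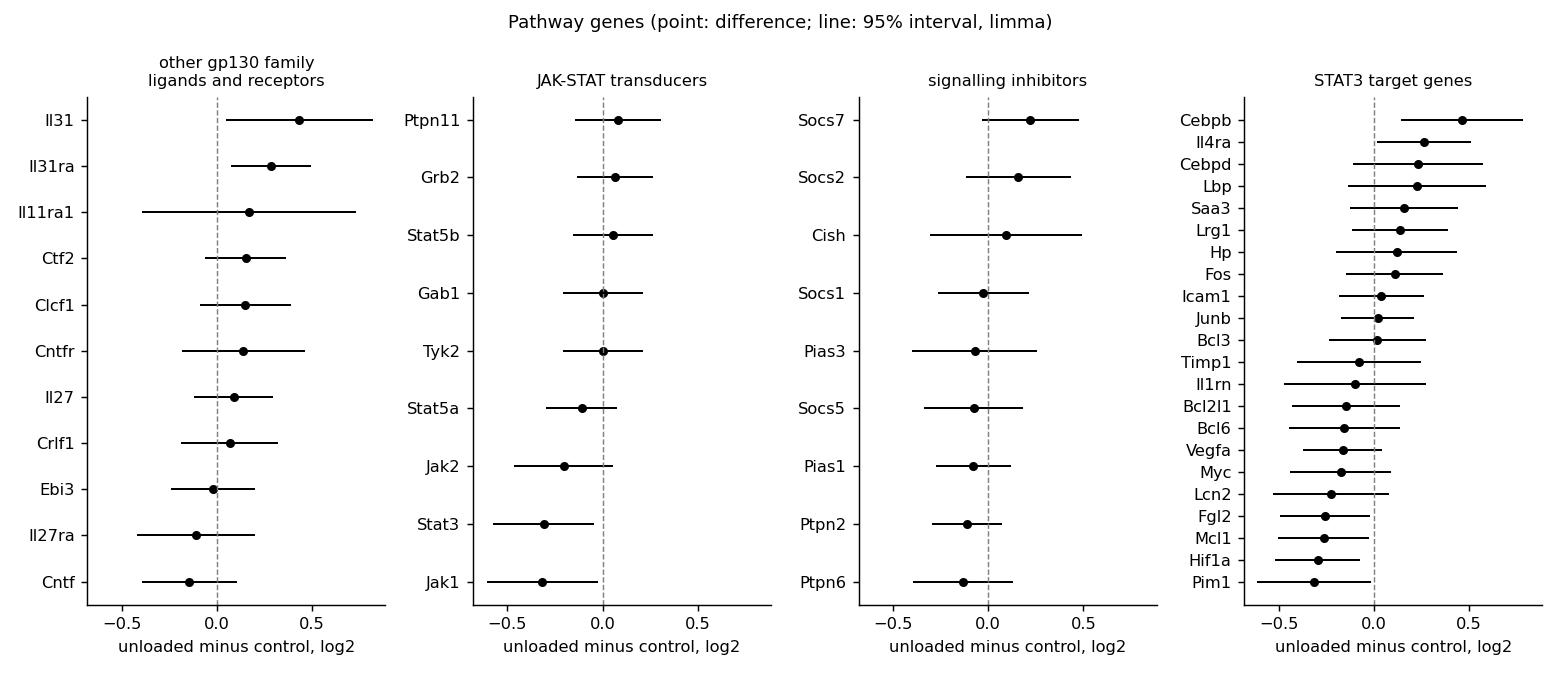
Difference between unloaded and control bone on the log2 scale (horizontal axis) for the pathway genes in their 4 lists, all but 1 of the 52, as points with 95% intervals. Each list holds positive and negative differences under this scaling, and the highest is 0.46 for Cebpb.

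For gp130 and Socs3, the genes with the most similar profile over the 10 arrays were sought among 17727 genes with a symbol. Clone and prediction names were passed over, from 18954 tested genes with a symbol. The measure was the root mean square distance between profiles set to mean 0 and SD 1. Nearest to Il6st were Dennd5a at 0.142 SD, Pkd1 at 0.205 and Nrbf2 at 0.210, where the median gene lay at 1.43. Nearest to Socs3 were Ephb4 at 0.311 SD, Plk3 at 0.332 and Sparc at 0.345, with a median of 1.36. The genes named were picked as the nearest of all, so the selection itself places them far below the median gene. These distances describe 10 arrays and were not tested.

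The 75th percentile of the signal ran from 637 to 903 intensity units, 89.8% to 95.5% of an array's spots were well above background, and 0 gene spots were saturated. Unloaded animal 5 had the lowest share of spots well above background, 89.8% against 91.9% for the next, and the highest median of negative control spots. Without it the differences were 0.37 for Il6, 0.23 for Osm A_51_P291361, 0.35 for Lifr A_52_P192699, -0.24 for Stat3 and 0.33 for Cebpb. Slide 1 held 4 controls, slide 2 held 1 control and 3 unloaded animals, and slide 3 held 2 unloaded animals, so slide and group are largely confounded. Markers of bone cells, muscle, blood cells, endothelium and fat that could be tested were well above background on all arrays, and limma called 0 in any of the 10 lists. Over all probes 62.6% of differences were positive, or 43.9% under median scaling. In means over each list, the 9 osteoblast and osteocyte markers ranged from 3.27 to 3.53 in control and from 3.07 to 3.81 in unloaded bone. Of their differences, 8 of 9 were positive (4 under median scaling). The 8 muscle markers ranged from 3.61 to 4.87 and from 3.75 to 4.83. Of the muscle markers 7 of 8 differences were negative (8 under median scaling), and they varied widely between animals in both groups. The 6 osteoclast markers ranged from 2.31 to 2.63 in control and from 2.41 to 2.96 in unloaded bone, with 6 positive differences (4 under median scaling). The 6 B cell markers ranged from 1.20 to 1.45 and from 0.58 to 1.41, with 5 negative (6 under median scaling). The 6 endothelial markers ranged from 0.82 to 1.07 and from 0.64 to 1.14, with 5 negative. The 6 adipocyte markers ranged from 1.83 to 2.79 and from 1.84 to 2.60, with 6 negative. The 5 erythroid markers that could be tested ranged from 2.64 to 3.67 and from 2.74 to 3.39, with 4 negative. The part of these cell types in the members' values was not tested.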

How the data were processed

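Femur RNA of 10 mice was hybridised to 10 arrays. The deposited values are linear spot intensities. The authors read the spots, per the file headers, with Agilent Feature Extraction 9.1.3.1 (protocol GE1-v5_91_0806, array design 014868), with no scaling between arrays. The background correction is named there only as a code.

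From these intensities, outlier spots were left out, repeat spots of 1 probe were averaged as log2 values, and the array's 75th percentile was subtracted. Of 41174 gene probes, 38629 were tested: each was well above background on at least 4 arrays of either group and had values on at least 3 arrays of both. Groups were compared, two-sided, with limma 3.58.1 in R 4.3.3 and Benjamini-Hochberg adjustment over all tested probes. The procedure was tested on simulated data without slide effects, with planted differences larger than those of any member or pathway gene. That test therefore does not show how well differences of the members' size are found. The number of arrays limits the precision.

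Names came from a RefSeq list (GRCm38.p6): 22944 probes matched by accession, 6664 by current and 3108 by older name, and 8458 kept the file's name. All probes of the members are given, and of each pathway list the genes called and the 4 with the smallest p, except 1 gene that is not reported here. Profile likeness was given for Il6st and Socs3. The members and lists were chosen with earlier results of these data known. Alternatives covered background correction, scaling, filters, the deposited series matrix (intensity, linear), variance model, array weights, slide, replicate number, body weight, threshold, probe choice and each array left out.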

Additional observations from a re-analysis of the deposited data

Results flagged for a closer look

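Among 68 groups of 5 values, 2 had an array far from the others by Dixon's criterion, which chance exceeds in about 1 of 20 groups. For Il11 (A_51_P267783), unloaded animal 5 read -1.91, against -2.11 for the nearest of its group. For Lifr (A_52_P579352), control 5 read 0.26, against 0.64 for the nearest control.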

How the results depend on the processing

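Over 23 alternative fits, limma called 0 of the 15 member probes and 0 pathway genes in each, and the smallest adjusted p of a member was 0.111. Lowering the demand to an adjusted p below 0.10 also gave 0. Il6, both Osm probes, Ctf1 and Lifr A_52_P192699 kept their positive sign in every fit, with Il6 between 0.19 and 0.48. The count of member probes with an unadjusted p below 0.05 was 3 to 4 with 1 array left out, 2 with normexp (Osm A_51_P291361 and Lifr A_52_P192699), 2 with slide as a fixed block (Il11 and Lifr A_52_P579352) and 1 within slide 2 (Il11). In both slide fits Il6, Osm A_51_P291361 and Lifr A_52_P192699 no longer had an unadjusted p below 0.05 (0.0815, 0.407 and 0.102 with the block). The count of calls over all probes was 3 with an intensity trend and robust prior, 3 with slide as a fixed block, 7 within slide 2, 0 with body weight, and 0 to 2 with 1 array left out (2 without control 2, and 0 without control 4, control 5 or unloaded animal 1, 3 or 4). With slide as a block and within slide 2 alike, where 1 control stands against 3 unloaded arrays, the sign turned for Il6ra A_51_P415863 (-0.0475), Il6st (0.0804), Lifr A_52_P579352 (0.47), A_51_P113182 (0.00155), A_52_P297113 (0.13) and A_52_P438170 (0.37), Osmr A_51_P319460 (0.25) and Socs7 (-0.00173). With median scaling it turned for Il6ra A_51_P415863 (-0.0119), Socs3 (-0.0535) and the Lif clone (-0.0345), with quantile normalization for Il6ra A_51_P415863 (-0.0158) and the Lif clone (-0.0411), and with normexp for the Lif clone (-0.0485). Body weight turned Il6ra A_51_P415855 (0.0206), Lifr A_52_P579352 (0.0313) and Osmr A_51_P319460 (0.00336), and array weights turned Osmr A_52_P495729 (-0.00884). With 1 array left out, the difference ranged from -0.119 to 0.0590 for Il11 (0.0126 without control 3, highest without control 5), from -0.179 to 0.0565 for Lifr A_52_P579352 (highest without unloaded animal 5), from -0.230 to 0.0102 for Lifr A_52_P438170 (highest without unloaded animal 4), from -0.0870 to 0.0309 for Osmr A_51_P319460 (highest without control 2, 0.00638 without unloaded animal 4), from -0.0134 to 0.213 for Osmr A_52_P495729 (lowest without unloaded animal 5), from -0.0327 to 0.0859 for Socs3 (lowest without unloaded animal 2) and from -0.0317 to 0.13 for the Lif clone (lowest without control 2). The second brightest probe gave the opposite sign for Il6ra (0.0832), Lifr (0.34) and Osmr (0.11). The cause of these turns was not tested. Median scaling moved the median of all probes by -0.0951.

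Equal replicate numbers did not pair the animals: their deviations correlated between -0.14 and 0.18. With the replicate number as a block, 1 probe was called in all, 0 member probes and 0 pathway genes were called, 3 member probes had an unadjusted p below 0.05, and the Il6 difference was 0.41.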
